A study of Mus musculus with 6 samples.

Results

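The cyclin-dependent kinase (Cdk) inhibitors and the D-type cyclins set whether a T cell leaves G1, and their RNA was followed here through the differentiation of mouse CD4+ T cells. The group was chosen by name and held 9 of the 24223 genes counted: *Cdkn1a*, *Cdkn1b* and *Cdkn1c* of the Cip/Kip family, *Cdkn2a*, *Cdkn2c* and *Cdkn2d* of the Ink4 family, and the cyclins *Ccnd1*, *Ccnd2* and *Ccnd3*. Every one of the 9 passed the filter on low counts and was tested. RNA-Seq was performed on Naive, Th17 and Th1 cells, with 2 libraries of each. Naive cells were CD4+CD62L+/CD44- T cells purified with magnetic beads from the pooled lymph nodes and spleens of C57BL/6 mice aged 1 to 2 months, without activation. For both helper types such cells were activated in culture with anti-CD3 and anti-CD28. Th17 cultures also received anti-IL-4, anti-IFN-γ, TGF-β, IL-6, IL-1β and IL-23, and Th1 cultures anti-IL-4, IL-12 and IL-2. Both cultures were collected on day 5. Activation and polarization therefore cannot be told apart in the comparisons with Naive, because no culture was activated without polarizing cytokines.

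A D-type cyclin binds Cdk4 or Cdk6, and the pair phosphorylates the retinoblastoma protein, which releases E2F factors and lets the genes of S phase be transcribed. The Ink4 proteins block Cdk4 and Cdk6 directly. The Cip/Kip proteins inhibit complexes of Cdk2, and p27, the product of *Cdkn1b*, keeps resting T cells out of the cycle. Much of the control of these proteins runs through their degradation, which RNA does not show.

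The *Cdkn1a* and *Cdkn2a* promoters are shown because those genes had the largest rises of the 9 in both helper cell types. Each sequence is a RefSeq window on GRCm38.p6, the assembly also called mm10, that runs from 250 bases before a transcript start to 50 after it, written 5′ to 3′ on the strand of the gene. Capitals mark matches on either strand to 4 E2F words (TTTCCCGC, TTTCGCGC, TTTGCCGC and TTTGGCGC), to the GC box word GGGCGG, and to the consensus decamer of p53. No match overlapped another.
Cdkn1a, upstream start, chr17:29090729-29091028, plus strand: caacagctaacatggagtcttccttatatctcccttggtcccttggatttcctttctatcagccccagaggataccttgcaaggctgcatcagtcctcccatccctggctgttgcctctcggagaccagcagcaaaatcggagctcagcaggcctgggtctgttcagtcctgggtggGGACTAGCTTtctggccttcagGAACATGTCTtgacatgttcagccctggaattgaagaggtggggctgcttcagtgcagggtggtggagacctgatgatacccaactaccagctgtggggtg
Cdkn1a, downstream start, chr17:29093519-29093818, plus strand: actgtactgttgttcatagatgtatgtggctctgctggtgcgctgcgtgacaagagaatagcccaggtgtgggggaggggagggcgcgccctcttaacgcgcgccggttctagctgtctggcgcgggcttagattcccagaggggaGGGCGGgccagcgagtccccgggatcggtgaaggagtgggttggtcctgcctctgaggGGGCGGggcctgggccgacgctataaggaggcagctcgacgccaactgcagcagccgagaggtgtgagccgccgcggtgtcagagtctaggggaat
Cdkn2a, upstream start, chr4:89294570-89294869, minus strand: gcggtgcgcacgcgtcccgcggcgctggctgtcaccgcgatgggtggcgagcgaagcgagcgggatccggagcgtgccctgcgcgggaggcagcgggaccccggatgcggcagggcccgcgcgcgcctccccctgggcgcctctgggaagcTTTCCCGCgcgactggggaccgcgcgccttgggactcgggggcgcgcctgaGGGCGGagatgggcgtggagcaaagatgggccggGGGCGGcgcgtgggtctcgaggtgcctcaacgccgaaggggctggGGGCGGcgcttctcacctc
Cdkn2a, downstream start, chr4:89282143-89282442, minus strand: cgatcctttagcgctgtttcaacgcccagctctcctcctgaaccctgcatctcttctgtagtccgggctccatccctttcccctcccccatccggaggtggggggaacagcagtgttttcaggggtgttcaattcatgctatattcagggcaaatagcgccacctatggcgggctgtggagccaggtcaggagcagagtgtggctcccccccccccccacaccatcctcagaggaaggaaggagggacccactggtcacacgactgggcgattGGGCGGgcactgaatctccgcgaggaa

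The upstream *Cdkn1a* window held 2 p53 decamers, and its downstream window 2 GC boxes. At *Cdkn2a*, the upstream window held 1 E2F word, 99 bases before the start, and 3 GC boxes, while the downstream window held 1 GC box. The *Cdkn2a* starts differ in product, since the upstream one gives p19Arf, which acts on Mdm2, and the downstream one gives p16Ink4a. The upstream *Cdkn2a* window was 77% G and C with 45 CpG dinucleotides, against 60.3% and 12 in the downstream one. Over all 32851 windows of 300 bases, 2.26% held an E2F word, 35.7% a GC box and 8.36% a p53 decamer. Windows of RefSeq were matched for 6 of the 9 genes and for *Cdkn2b*, the remaining Ink4 gene. Apart from the 2 in *Cdkn1a*, 1 p53 decamer was found, in the *Cdkn2d* window. A forkhead word (TGTTTAC), held by 3.65% of all windows, matched once, 243 bases before the upstream start of *Ccnd3*. These matches are descriptions of letters and not measurements of binding.

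Library totals ranged from 59973041 to 69080017 counts in replicate 1 of the 3 cell types and from 17742158 to 18608805 in replicate 2. A level of 3 counts, taken as the limit of detection, corresponded to between 0.0440 and 0.190 CPM, a gene's counts scaled to 1000000 of the library total after scaling by trimmed means of M-values (TMM), and the lowest count among the 9 genes was 6. The 6 T cell markers summed to between 2537 and 3699 CPM in every library, the Th17 markers reached 1414 and 1879 CPM in Th17 against at most 10.5 elsewhere, and the Th1 markers 896 and 922 CPM in Th1 against at most 162 elsewhere. Markers of other cells were uneven. Those of neutrophils, of which 9 of 10 were in the files and all were above 10 CPM in Th17, summed to 3111 and 3001 CPM for Th17, 315 and 191 for Naive and 30.3 and 43.9 for Th1. Those of macrophages and dendritic cells (8 of 9 in the files) summed to 314 and 895 CPM in Th17 against 16.6 to 49.4 elsewhere, and those of mast cells and basophils (all 8) to 226 and 443 CPM for Th17, 171 and 52.0 for Naive and 78.9 and 65.7 for Th1. Erythroid markers summed to 925 and 149 CPM for Naive and to at most 4.30 elsewhere, with the 4 globin genes listed at 0 throughout. The naive T cell markers were high in every library, at 2340 to 3958 CPM, and those of B cells summed to at most 17.4 CPM, of CD8 T and NK cells to at most 65.9 and of endothelial and stromal cells to at most 277. The 20 S-phase genes examined also differed within cell types, and were all higher in replicate 1 of Naive and of Th1, with median log2 differences of 1.19 and 1.83.

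Compared with Naive, 3 of the 9 genes rose in Th17 (*Cdkn1a*, *Cdkn2a* and *Cdkn2d*), where 4.01% of all genes tested did, and 2 rose in Th1 (*Cdkn1a* and *Cdkn2a*), where 4.64% did. Th1 stood above Th17 in 1 gene, *Ccnd2*, where 2.70% of all genes did. Calls came from edgeR's quasi-likelihood test and needed an adjusted p-value (Benjamini-Hochberg, over all 13607 genes tested) under 0.01 together with a log2 fold change of more than 1 in either direction. No gene of the 9 was called lower in any comparison, against 1.43% of all genes for Th17 and 2.81% for Th1 versus Naive and 2.83% for Th1 versus Th17. At an unadjusted p under 0.05 the lower genes numbered 1, 2 and 2 in that order, against 2190, 1940 and 2258 of all 13607 tested. DESeq2 called 1 (*Ccnd2*), 0 and 1 (*Cdkn1c*) lower, against 670, 807 and 860 of all genes. The median log2 fold change of the 9 was 0.63 in Th17 and 1.10 in Th1 versus Naive, against -0.02 for all genes in each, and 0.20 in Th1 versus Th17, against -0.03. The ranges of the compared cell types did not overlap for 6, 9 and 7 of the 9 in that order. With 2 libraries against 2 this was common, at 65.5%, 56.0% and 66.6% of all genes tested.

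**Figure D1:**
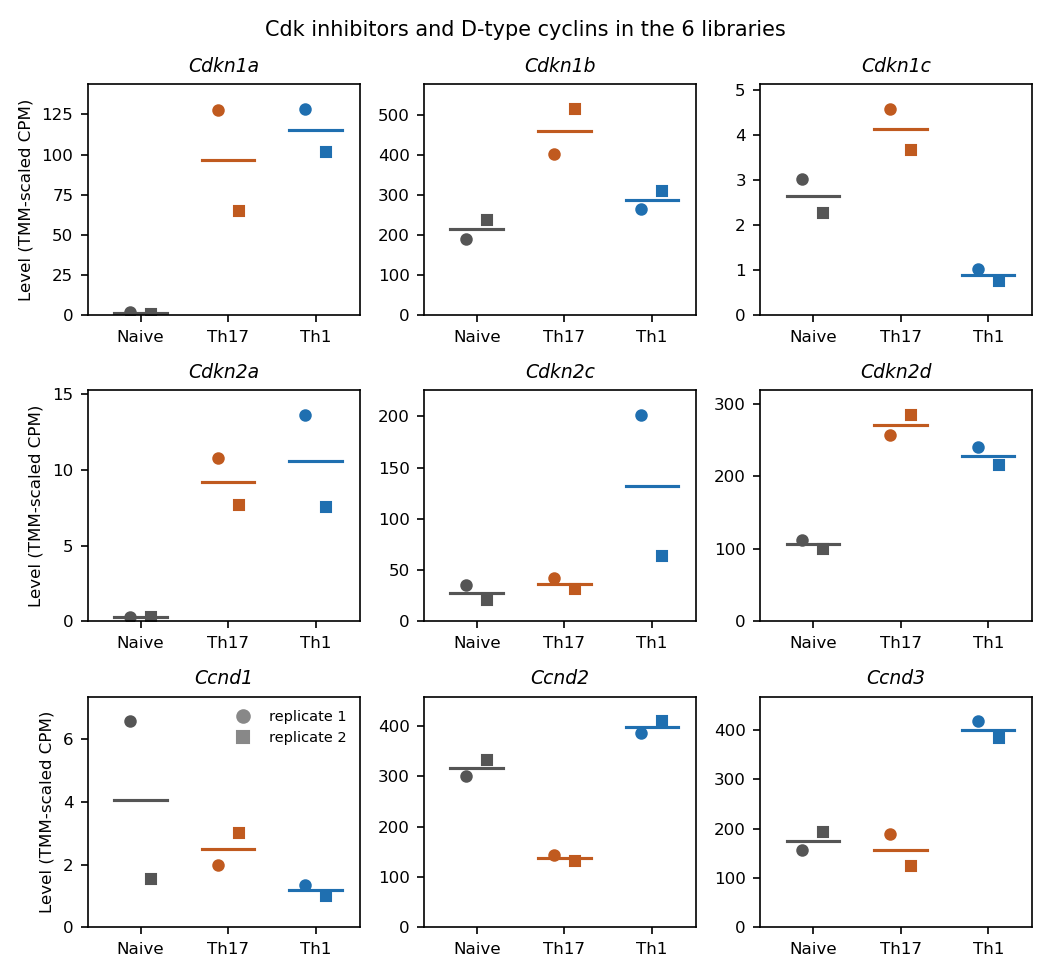
Level of each gene in TMM-scaled CPM on a linear vertical axis from 0, with circles for replicate 1, squares for replicate 2 and a line at the mean of each cell type (n = 2). *Cdkn1a* and *Cdkn2a* lie near the axis in Naive and far above it in both helper types, while *Ccnd2* is lowest in Th17 and *Ccnd3* highest in Th1.

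In the Cip/Kip family, *Cdkn1a* changed most. It lies at chr17:29090976-29100727 on the plus strand, by GENCODE vM21 on GRCm38 as for all genes here, and encodes p21, an inhibitor of Cdk2 that p53 induces. Its level was 1.88 and 0.644 CPM in the 2 Naive libraries (128 and 13 counts), 128 and 65.0 for Th17 and 128 and 102 for Th1. Both helper types stood far above Naive with no overlap, and their own ranges overlapped. Versus Naive, *Cdkn1a* rose by 6.14 ± 0.54 (SE, adjusted p = 1.51e-04) on the log2 scale in Th17 and by 6.40 ± 0.55 (adjusted p = 1.17e-04) in Th1. With a library left out these values ran from 5.59 to 7.22 and from 5.93 to 7.47, the highest (7.22 and 7.47) without Naive replicate 1. Th1 and Th17 differed by 0.25 on the log2 scale (adjusted p = 0.70), with a 95% interval from -0.69 to 1.20. In bulk RNA, a change in the number of cells of a type and a change in the RNA per cell cannot be told apart. The neutrophil marker sum was higher in Th17 than in Naive and lower in Th1 than in Naive. Most of the Naive sum was *Mpo* (251 and 159 CPM) and *Elane* (57.3 and 29.6 CPM), which with *Cebpe* were lower in Th1. The markers *Ltf*, *Ngp*, *Camp*, *S100a8*, *S100a9* and *Chil3* were higher in Th1 than in Naive, as in Th17. *Cdkn1a* rose in both helper types, and the part of other cells in its level was not tested. A model on the other strand, *AC167363.2*, shares 273 of its exonic bases.

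*Cdkn1b*, at chr6:134920401-134925513 on the plus strand, was the most abundant Cip/Kip RNA in every library. It measured 191 and 239 CPM for Naive, 404 and 515 for Th17 and 266 and 311 for Th1. The 3 cell types did not overlap, and the order was Naive, Th1, Th17. The difference between Th17 and Naive, 1.10 ± 0.28 on the log2 scale, did not pass the threshold (adjusted p = 0.030), nor did those of the neighbours in that order, 0.43 for Th1 versus Naive (adjusted p = 0.36) and -0.67 for Th1 versus Th17 (adjusted p = 0.13). DESeq2 did call the difference between Th17 and Naive.

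*Cdkn1c*, at chr7:143458339-143461050 on the minus strand, encodes p57, an imprinted inhibitor with roles in development. Its levels were low, at 3.04 and 2.28 CPM for Naive, 4.58 and 3.68 for Th17 and 1.04 and 0.759 for Th1, the last from 67 and 12 counts. The cell types did not overlap and the order was Th1, Naive, Th17. Th1 differed from Th17 by -2.17 ± 0.50 on the log2 scale (adjusted p = 0.019) and from Naive by -1.54 ± 0.49 (adjusted p = 0.060), Th17 differed from Naive by 0.63 (adjusted p = 0.37), and none of these values passed. *Cdkn1c* shares 625 exonic bases with an antisense gene, *Gm44732*, whose reads cannot be told apart without a known strand setting.

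Among the Ink4 genes of the chosen group (*Cdkn2a*, *Cdkn2c* and *Cdkn2d*), *Cdkn2a* had the largest rise versus Naive in both helper types. Its gene model spans chr4:89274471-89294653 on the minus strand, and the counts do not separate p16Ink4a from p19Arf. Its level was 0.294 and 0.297 CPM for Naive (20 and 6 counts), 10.8 and 7.69 for Th17 (703 and 136 counts) and 13.6 and 7.52 for Th1 (879 and 119 counts). Every helper library was above every Naive one, and the ranges of Th17 and Th1 overlapped. Versus Naive, the log2 fold change was 4.96 ± 0.52 in Th17 (adjusted p = 4.31e-04) and 5.16 ± 0.53 in Th1 (adjusted p = 2.78e-04). The difference between Th1 and Th17 was 0.20 (adjusted p = 0.76, 95% interval from -0.73 to 1.13).

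*Cdkn2b*, which is not one of the 9, lies 11645 bases from *Cdkn2a* on the same strand and encodes p15, another inhibitor of Cdk4 and Cdk6. It had 17 and 0 counts in the Naive libraries, 5.88 and 4.98 CPM for Th17 and 5.26 and 4.74 CPM for Th1. It rose in Th17 (log2 fold change 5.04 ± 0.78, adjusted p = 0.00272) and in Th1 (4.92 ± 0.78, adjusted p = 0.00265), and the helper types differed by -0.12 (adjusted p = 0.91).

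*Cdkn2d*, at chr9:21288410-21291407 on the minus strand, encodes p19Ink4d. It measured 113 and 99.4 CPM for Naive, 257 and 284 for Th17 and 240.0 and 215 for Th1. No helper library reached down to the Naive range, and the order was Naive, Th1, Th17. The gene rose in Th17 versus Naive by 1.35 ± 0.26 on the log2 scale (adjusted p = 0.00838), while the value for Th1, 1.10 ± 0.26, did not pass in edgeR (adjusted p = 0.017) and was called by DESeq2. The 2 helper types differed by -0.25, which was not called (adjusted p = 0.52). The call in Th17 was lost with scaling by library size alone (log2 fold change 1.31, adjusted p = 0.013) and without each of the 4 libraries in turn, at 1.25 to 1.44 with adjusted p-values from 0.028 to 0.059. The neutrophil, macrophage and mast cell marker sums given above were highest in the same Th17 libraries, and their part in this rise was not tested.

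*Cdkn2c*, at chr4:109660876-109667189 on the minus strand, encodes p18, an inhibitor that restrains the division of lymphocytes. Its level was 35.3 and 20.5 CPM for Naive, 42.6 and 31.3 for Th17 and 201 and 63.3 for Th1. The Th1 libraries were above all others but lay far apart, with a log2 difference of 1.67, the largest of the 9 genes in Th1, where the median gene differed by 0.373. Naive and Th17 overlapped and differed by 0.40 on the log2 scale (adjusted p = 0.58). Th1 stood 2.24 ± 0.50 above Naive on the log2 scale (adjusted p = 0.014) and 1.84 ± 0.49 above Th17 (adjusted p = 0.033). Neither was called by edgeR, while DESeq2 called both on the same libraries. Without Th1 replicate 2 edgeR called both (2.85, adjusted p = 0.00158, and 2.45, adjusted p = 0.00492), and without Th1 replicate 1 they were 1.23 and 0.77 with adjusted p-values of 0.074 and 0.23.

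**Figure D2:**
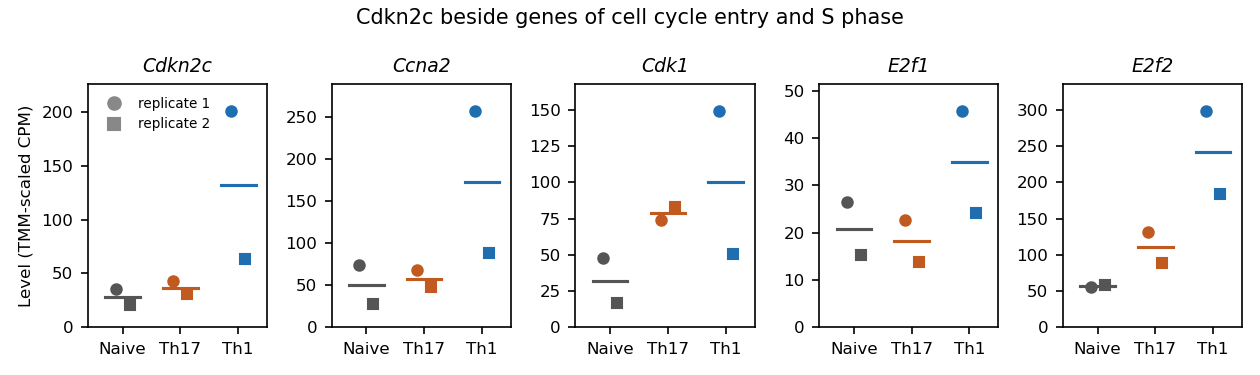
Level of *Cdkn2c* beside *Ccna2*, *Cdk1*, *E2f1* and *E2f2* in TMM-scaled CPM on linear axes from 0, with circles for replicate 1, squares for replicate 2 and a line at the mean (n = 2). In Th1, all 5 genes are higher in replicate 1, with *Cdkn2c* at 201 against 63.3 CPM and *Ccna2* at 258 against 88.7 CPM.

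Other genes of the cycle were split in the same libraries. *Ccna2*, the cyclin of S phase and G2, measured 74.3 and 27.7 CPM for Naive, 67.8 and 47.6 for Th17 and 258 and 88.7 for Th1. *Cdk1*, the mitotic kinase, measured 47.7 and 16.6, 74.2 and 83.4, and 150 and 50.3 CPM in the same order. Like *Cdkn2c*, both were higher in replicate 1 of Naive and of Th1. The S-phase genes did so in 20 of 20 cases in each of these cell types and in 15 of 20 in Th17, where their median log2 difference was 0.22. Their part in the level of *Cdkn2c* was not tested.

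Among the D-type cyclins, *Ccnd2* separated the helper cell types most clearly. *Ccnd2*, at chr6:127125162-127152193 on the minus strand, is induced by antigen receptor and cytokine signals in lymphocytes. It measured 300.1 and 332 CPM for Naive, 144 and 132 for Th17 and 385 and 410 for Th1. The cell types did not overlap, and Th17 was lowest. The gene was higher in Th1 than in Th17 by 1.53 ± 0.26 on the log2 scale (adjusted p = 0.00502). Th17 stood 1.20 below Naive, a log2 fold change of -1.20 ± 0.26 that did not pass the threshold (adjusted p = 0.015), and Th1 and Naive, the neighbours at the top, differed by 0.33 (adjusted p = 0.44). The call between Th1 and Th17 was lost with library size alone (1.31, adjusted p = 0.014) and without each of the 4 libraries in turn (1.47 to 1.59, adjusted p from 0.019 to 0.062). Th17 was also the cell type with the highest neutrophil, macrophage and mast cell marker sums, and their part in the lower level of *Ccnd2* was not tested. Antisense genes share 368 (*9330179D12Rik*, at most 2.72 CPM) and 372 (*Gm43126*) exonic bases with it.

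*Ccnd3*, at chr17:47505051-47599691 on the plus strand, is the D-type cyclin that developing thymocytes depend on. Its level was 157 and 194 CPM for Naive, 190.0 and 125 for Th17 and 418 and 384 for Th1. Both Th1 libraries were above the other 4, among which Naive and Th17 overlapped, with Th17 at -0.15 relative to Naive on the log2 scale (adjusted p = 0.74). Log2 fold changes for Th1 were 1.19 ± 0.30 against Naive (adjusted p = 0.023) and 1.35 ± 0.30 against Th17 (adjusted p = 0.016), so neither was called by edgeR, while DESeq2 called both. The gene shares 361 exonic bases with *Bysl* on the other strand, which ranged from 23.9 to 69.4 CPM.

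*Ccnd1*, at chr7:144929931-144939925 on the minus strand, the D-type cyclin of many non-lymphoid cells, was scarce. It measured 6.58 and 1.54 CPM for Naive (448 and 31 counts), 1.99 and 3.0 for Th17 and 1.35 and 1.01 for Th1. The Naive libraries differed by 2.07 on the log2 scale, the largest replicate difference among the 9 genes, the Naive range held that of Th17, and both Th1 libraries lay below the rest. Against Naive, Th17 differed by -0.74 ± 0.65 on the log2 scale (adjusted p = 0.45) and Th1 by -1.78 ± 0.68 (adjusted p = 0.11). The value for Th1 versus Th17 was -1.05 ± 0.68 (adjusted p = 0.30), and without Naive replicate 1 those versus Naive became 0.69 for Th17 and -0.36 for Th1. Without Naive replicate 2 they were -1.43 and -2.45. Naive replicate 1 was also the library with the most erythroid marker RNA, and the part of other cells in its *Ccnd1* level was not tested. Reads on 1100 exonic bases shared with *Oraov1*, on the opposite strand at 17.8 to 24.6 CPM, cannot be told apart from those of *Ccnd1*.

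**Figure D3:**
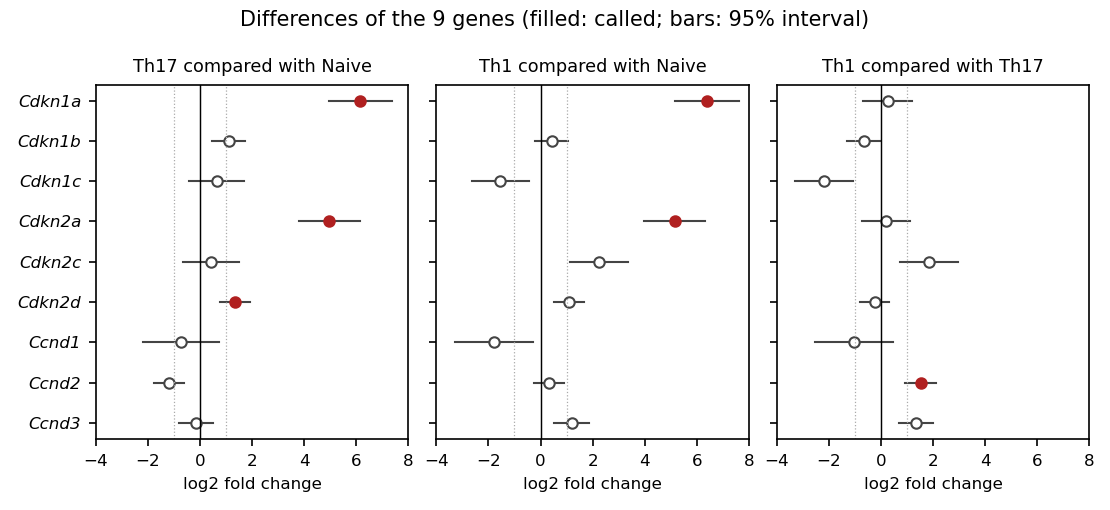
Log2 fold change of each gene (horizontal axis) in the 3 comparisons, with bars for the 95% interval and filled points for the called genes. The intervals of *Cdkn1a* and *Cdkn2a* lie far above 0 versus Naive and span 0 between Th1 and Th17, where *Ccnd2* is the filled point.

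Levels of different genes were compared per kilobase of merged exons in GENCODE vM21. On this scale *Cdkn2d* was the most abundant of the 9 genes in every cell type, with a mean of 67.4 ± 6.0 (SD, n = 2) CPM per kb in Naive, 172 ± 12 in Th17 and 145 ± 11 in Th1. *Cdkn1b* followed at 47.2 ± 7.4, 101 ± 17 and 63.4 ± 7.0 CPM per kb. *Cdkn1a* went from 0.355 ± 0.246 in Naive to 27.1 ± 12.5 in Th17 and 32.4 ± 5.2 in Th1, while *Cdkn2a* reached 7.87 ± 1.85 and 9.01 ± 3.67 CPM per kb in the helper types. These were the 2 scarcest of the 9 RNAs in Naive, and *Cdkn2a* stayed far below *Cdkn2d* in all cell types.

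Shares within each family are descriptions and carry no test. *Cdkn1b* made up 96.5% ± 1.5 of Cip/Kip RNA per length in Naive, 77.4% ± 10.6 in Th17 and 65.9% ± 6.1 in Th1 (SD, n = 2), and *Cdkn1a* went from 0.769% ± 0.610 to 21.0% ± 10.3 and 33.7% ± 6.0. The spread between Th17 libraries was wide enough for the helper types to lie close together. *Cdkn2d* held 86.5% ± 3.4 of Ink4 RNA, *Cdkn2b* included, in Naive, 87.0% ± 3.1 in Th17 and 71.6% ± 12.4 in Th1. *Cdkn2d* held 62.8% in Th1 replicate 1 and 80.4% in replicate 2, both below the 84.1% to 89.2% of the other libraries. *Cdkn2c* held 30.8% in Th1 replicate 1 but 13.8% in replicate 2, within the 10.7% and 15.4% of the Naive libraries. Of the D-type cyclins, *Ccnd2* made up 61.7% ± 0.9 in Naive, 44.7% ± 5.3 in Th17 and 47.9% ± 2.6 in Th1, with *Ccnd3* at 36.6%, 53.7% and 51.8%. Both helper types thus had more *Ccnd3* than *Ccnd2* RNA per length on average, and Naive the reverse. In replicate 2 the shares of *Ccnd2* and *Ccnd3* were close, at 48.5% and 49.3% in Th17 and 49.78% and 49.97% in Th1. Not divided by length, *Ccnd2* was ahead in replicate 2 of Th17 (50.7% against 48.1%) and of Th1 (51.6% against 48.3%). *Ccnd3* stayed ahead in replicate 1 of Th17 (56.6% against 42.8%) and of Th1 (51.9% against 47.9%).

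Summed over the 3 D-type cyclins, the level was 51.2 and 57.7 CPM per kb for Naive, 37.4 and 28.9 for Th17 and 88.9 and 87.5 for Th1. Summed over the 7 inhibitors, *Cdkn2b* included, it stood at 2.53 and 2.16 times the cyclin sum in Naive, 8.55 and 11.6 times in Th17 and 3.80 and 3.06 times in Th1. The ranges of the 3 cell types were separate on this ratio, with Naive lowest and Th17 highest. These ratios carry no test. Their largest parts were *Cdkn2d* and *Cdkn1b*, except in Th1 replicate 1, where *Cdkn2c* (74.8 CPM per kb) exceeded *Cdkn1b* (58.5). The ratios depend on length, since merged exons came to 9409 bases for *Ccnd2*, 8775 for *Ccnd3*, 1574 for *Cdkn2d* and 4552 for *Cdkn1b*. Not divided by length, *Ccnd2* and *Ccnd3* averaged 316 and 175 CPM in Naive, against 106 for *Cdkn2d* and 215 for *Cdkn1b*. The ratios therefore do not show that inhibitor counts exceeded cyclin counts.

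**Figure D4:**
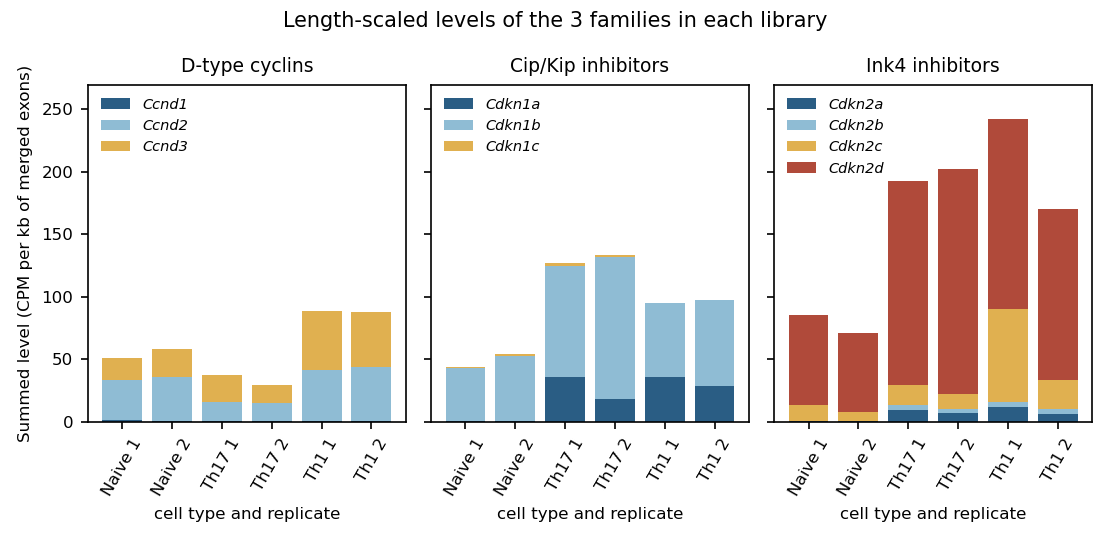
Stacked bars of CPM per kb of merged exons (vertical axis from 0) for D-type cyclins, Cip/Kip and Ink4 inhibitors in each of the 6 libraries, coloured by gene. Cyclin sums are lowest in Th17 (37.4 and 28.9) and highest in Th1 (88.9 and 87.5), and *Cdkn2d* forms most of each Ink4 bar, with *Cdkn2c* largest in Th1 replicate 1.

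None of the main kinases that these proteins bind was called. *Cdk4* averaged 210, 217 and 187 CPM in Naive, Th17 and Th1, *Cdk6* 23.8, 25.9 and 32.9 CPM, and *Cdk2*, the partner of cyclins E and A, 61.8, 62.5 and 64.8 CPM. Their log2 fold changes lay between -0.21 and 0.47, and the widest of their 95% intervals, those of *Cdk6*, reached from -1.07 to 1.31 in Th17 and from -0.72 to 1.66 in Th1 versus Naive. *Ccne1* and *Ccne2*, the E-type cyclins, and *Skp2*, the ubiquitin ligase subunit that marks p27 for degradation, were not called in any comparison. *Cdk1* and *Ccna2* did not pass either, at 1.63 (adjusted p = 0.072) and 1.76 (adjusted p = 0.053) in Th1 versus Naive, where DESeq2 did call *Ccna2*. Of the 17 partner kinases and other cyclins tested, 1 was called, *Cdc25b*, a phosphatase that activates Cdks. It was higher in Th1 than in Naive (2.36, adjusted p = 6.67e-04) and than in Th17 (2.16, adjusted p = 0.00141). Of all genes tested, 4.64% and 2.70% were called higher there. In Th17 versus Naive none of the 17 was called, and DESeq2 called 0. At an unadjusted p under 0.05, 1 was higher and 1 lower in Th17, against 2342 and 2190 of all 13607 genes. DESeq2 called 3 of the 17 higher in Th1 than in Naive (*Cdc25b*, *Ccna2* and *Ccnb2*), against 1110 of all genes. With the replicate number as a block, edgeR called 4 higher, against 839 of all genes.

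Among the 13 genes of the Rb family and E2F factors, edgeR called 1. *E2f2*, an activating E2F, measured 55.9 and 57.9 CPM for Naive, 131 and 89.2 for Th17 and 299 and 183 for Th1. It rose in Th1 versus Naive (2.08 ± 0.33, adjusted p = 0.00254), where 4.64% of all genes tested did. The value in Th17, 0.95, did not pass (adjusted p = 0.067). *Rb1* averaged 44.3, 75.4 and 61.8 CPM in Naive, Th17 and Th1, and neither it, its relatives *Rbl1* and *Rbl2*, nor *E2f1* was called. DESeq2 called *E2f2* and *E2f7*, an E2F repressor, higher in Th1 than in either other cell type. Of all 13607 genes it called 1110 higher than in Naive and 921 higher than in Th17. *E2f7* measured 4.01 and 3.57 CPM for Naive, 8.71 and 4.41 for Th17 and 48.2 and 9.74 for Th1, and its log2 fold change in Th1 versus Naive, 2.94 ± 0.67, did not pass in edgeR (adjusted p = 0.015).

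Of the 20 E2F target genes of S phase, which encode replication proteins such as the Mcm helicase, edgeR called 0 in each comparison. At an unadjusted p under 0.05, 1 was lower in Th17 than in Naive, against 2190 of all 13607 genes. By that measure 2 were higher in Th1 than in Naive, against 2134, and 1 higher in Th1 than in Th17, against 2336. DESeq2 called 0 in each comparison. The median log2 fold change of the 20 genes was -0.08 in Th17 and 0.52 in Th1 versus Naive, and 0.55 in Th1 versus Th17. Of the 20, 18 were higher in Th1 than in Naive and 17 higher in Th1 than in Th17. The replicate difference within Th1, 1.83 at the median, was larger than these medians.

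The p53 target genes other than *Cdkn1a* numbered 17, and each was tested. In Th17 versus Naive, 5 rose (*Perp*, *Plk2*, *Pmaip1*, *Phlda3* and *Ccng1*) and 0 fell, where 4.01% of all genes tested rose and 1.43% fell. There 1 gene was lower at an unadjusted p under 0.05 and 1, *Gadd45a*, in DESeq2, against 2190 and 670 of all genes. The largest rises were 3.73 for *Perp*, an effector of apoptosis at the plasma membrane (adjusted p = 0.00341), and 2.99 for *Plk2*, a polo-like kinase (adjusted p = 0.00231). In Th1 versus Naive, *Plk2* rose by 4.48 (adjusted p = 3.20e-04), *Pmaip1*, which encodes the pro-apoptotic protein Noxa, by 3.82 (adjusted p = 1.46e-04) and *Phlda3* by 3.14 (adjusted p = 0.00264). *Gadd45a*, a stress response gene, fell by 2.60 (adjusted p = 0.00270). Of all genes tested, 4.64% rose and 2.81% fell there. Between Th1 and Th17 edgeR called 0. At an unadjusted p under 0.05, 4 were higher and 3 lower in Th1, against 2336 and 2258 of all 13607 genes. DESeq2 called 3 higher and 0 lower, against 921 and 860 of all genes.

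The median log2 fold change of the p53 targets was 0.74 in Th17 and 0.91 in Th1 versus Naive, and 0.08 in Th1 versus Th17. *Trp53*, which encodes p53, averaged 181, 116 and 184 CPM in Naive, Th17 and Th1. *Mdm2*, the ligase that degrades p53 and itself one of its targets, averaged 79.7, 122 and 102 CPM. Neither was called, and Th17 differed from Naive by -0.64 (adjusted p = 0.10) and by 0.61 (adjusted p = 0.11).

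Of the 19 regulators of the 9 genes, 1 was called. *Myc*, which represses several Cdk inhibitors and promotes growth, measured 173 and 137 CPM for Naive, 84.2 and 74.7 for Th17 and 272 and 529 for Th1, without overlap. It was higher in Th1 than in Th17 by 2.33 ± 0.35 on the log2 scale (adjusted p = 0.00274), where 2.70% of all genes tested were. The values versus Naive, -0.97 in Th17 (adjusted p = 0.080) and 1.37 in Th1 (adjusted p = 0.023), did not pass in edgeR. DESeq2 called *Myc* higher in Th1 than in Naive, as 1 of the 19, against 1110 of all 13607 genes. *Foxo1*, a forkhead factor that promotes *Cdkn1b* transcription, averaged 273, 133 and 349 CPM, and its difference between Th1 and Th17, 1.38, was not called by edgeR (adjusted p = 0.037). DESeq2 called it higher, with *Foxo3*, *Gsk3b* and *Myc*, and *Skp1a* lower, against 921 and 860 of all genes. At an unadjusted p under 0.05, 8 of the 19 were higher and 1 lower in Th1 than in Th17, against 2336 and 2258 of all 13607 genes. In Th17 versus Naive, 2 of the 19 were higher and 8 lower, against 2342 and 2190 of all genes. There DESeq2 called *Skp1a* higher and *Foxo3* lower, against 1047 and 670 of all genes. Among the 11 quiescence factors tested, *Foxp1*, a forkhead factor that keeps naive T cells at rest, was called higher in Th1 than in Th17 (1.66, adjusted p = 0.00668). Their median was -0.63 in Th17 and -0.15 in Th1 versus Naive, with 0 called in either. At an unadjusted p under 0.05, 5 quiescence factors were lower and 1 higher in Th17 versus Naive, against 2190 and 2342 of all genes. In Th1 versus Naive 1 was lower and 1 higher, against 1940 and 2134. DESeq2 called 3 of the quiescence factors lower and 1 higher in Th17, against 670 and 1047 of all genes, and 0 in Th1. *Cdkn3*, a phosphatase that acts on Cdks, rose in Th1 versus Naive (2.67, adjusted p = 0.00530) and stood at 1.73 in Th17 (adjusted p = 0.037), which edgeR did not call and DESeq2 and edgeR with the replicate number as a block did. Its level was 5.40 and 2.87 CPM for Naive, 13.9 and 14.0 for Th17 and 38.0 and 15.3 for Th1. The difference between Th1 and Th17 was not called (0.94, adjusted p = 0.18).

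**Figure D5:**
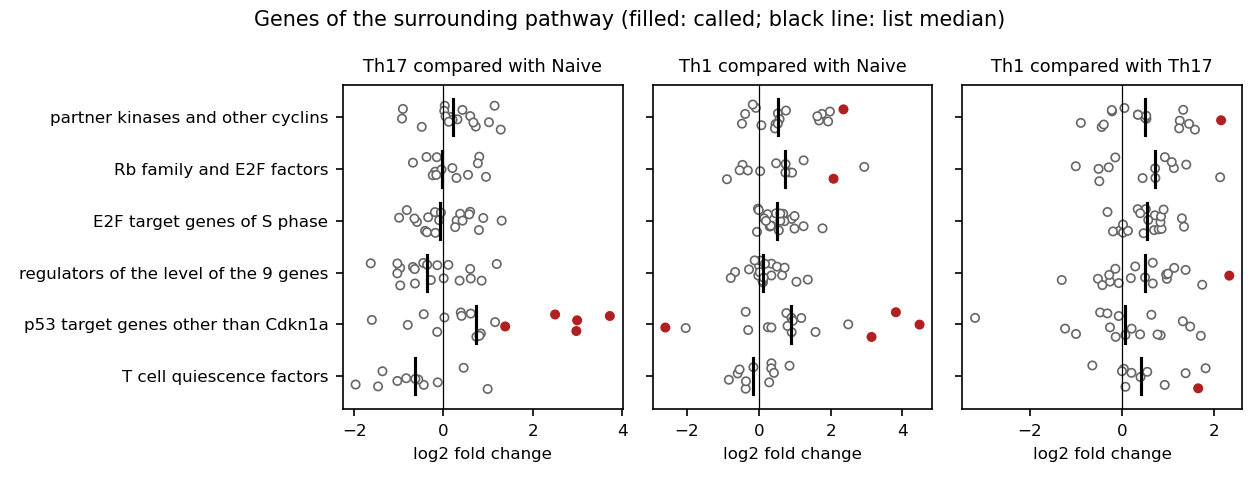
Log2 fold change (horizontal axis) of the genes of 6 pathway lists in the 3 comparisons, with filled points for called genes and a black line at the median of each list. Filled points lie mainly among the p53 targets versus Naive, with 5 higher in Th17, and with 3 higher and 1 lower in Th1.

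For each of the called genes, those with the most similar pattern were taken by Pearson's r of log2 CPM over the 6 libraries, which share depth and scaling. *Cdkn1a* was nearest to *Gp49a* (r = 0.993), an immunoglobulin-like receptor gene, and *Gzmb* (r = 0.992), which encodes granzyme B and averaged 8.22 CPM in Naive, 356 in Th17 and 678 in Th1. *Cdkn2a* was nearest to *Prrg4* and *Unc13a* (both r = 0.998), of which *Unc13a* averaged 1.06, 26.3 and 25.6 CPM. *Cdkn2d* was nearest to *Appbp2os* (r = 0.998) and *Nmrk1* (r = 0.997), and *Ccnd2* to *H2-K1* (r = 0.998), a class I histocompatibility gene at 3982, 1405 and 5091 CPM, and *C2cd5* (r = 0.994). With 3 cell types, many genes share such a shape, and these values describe likeness over 6 libraries only.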

How the data were processed

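RNA-Seq was performed on Naive, Th17 and Th1 cells, 2 libraries each. Per the labels, polyA RNA was reverse transcribed by Smart-seq2 and sequenced as TruSeq libraries. According to the methods and the submitters' processing notes, the authors aligned reads to mm10 by HISAT2 (v2.2.1), removed duplicates and used HTSeq (v0.13.5) to count reads. The deposited values are raw counts per gene. The methods state default HTSeq parameters and the supplementary code a reverse-stranded option, so the use of strand was not settled. The annotation is not given in the sources used here. The study describes the replicates as independent biological replicates, and the labels do not tie them to separate mice.

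Counts were analysed with edgeR 4.0.16 in R 4.3.3. The 13607 of 24223 genes that passed filterByExpr were scaled by TMM and fitted together by quasi-likelihood over the 6 libraries, with no term but cell type. CPM are TMM-scaled, and for log2 CPM a prior count of 2 was added. Fold changes have as SE the value divided by the square root of F. Gene models were those of GENCODE vM21. With 2 libraries against 2, p-values come from this fit or, where named, from an alternative fit across genes, and counting limits cover counting error only. The scripts were checked on simulated data.

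The 9 genes, the lists and the rules for naming genes were chosen with earlier results of these data known. The genes named were the 9, partners and regulators listed by name, the 2 called genes with the largest rise and the 2 with the largest fall in each list and comparison, and the 2 genes nearest in pattern to each called gene of the 9, among those with a range of log2 CPM at least 0.5 times as wide. *Ccng1*, *Phlda3*, *E2f7* and the genes called by DESeq2 alone, and genes that overlap the 9, were named after their values were seen. The p53 decamer was added to the motifs after the promoter sequences were seen. Alternatives were DESeq2 1.42.0, other scaling and filters, the replicate number as a block, a fit of the 4 libraries alone, thinned counts, other thresholds and leaving out each library.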

Additional observations from a re-analysis of the deposited data

How the results depend on the processing

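The rises of *Cdkn1a* and *Cdkn2a* compared with Naive were called under every alternative in which they were tested, and *Cdkn2a* was not tested where at least 10 counts were asked of each library. Of the 9 genes, 3, 2 and 1 were called in Th17 compared with Naive, Th1 compared with Naive and Th1 compared with Th17. In that order, DESeq2, with or without the replicate number as a block, no filter on low counts and an adjusted p under 0.05 each gave 5, 5 and 4, and at least 10 counts in every library gave 2, 1 and 2. Library size alone gave 2, 2 and 0 and moved the median log2 fold change of all genes to -0.05, -0.26 and -0.24. With the replicate number as a block, edgeR called 3, 3 and 2, the additions being *Cdkn2c* in Th1 (2.11, adjusted p = 6.6e-04, and 1.65, adjusted p = 0.0049). The numbers were not treated as a pairing, since deviations of same-numbered libraries correlated at -0.23, 0.17 and 0.08 across genes. Without each library in turn the counts were 2 to 2, 2 to 3 and 0 to 1.

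Directions turned only in differences that were not called. For Th1 compared with Th17, *Cdkn2a* stood at -0.0107 with library size alone and between -0.30 (without Th1 replicate 1) and 0.57 (without Th1 replicate 2) with a library left out, with -0.0129 without Th17 replicate 2. *Cdkn1a* ranged there from -0.15 (without Th17 replicate 2) to 0.82. For Th17 compared with Naive, *Ccnd1* ranged from -1.43 to 0.69 (without Naive replicate 1) and *Ccnd3* from -0.48 to 0.11 (without Th17 replicate 2). The cause was not tested. Over all genes, the main test called 739, 1014 and 752, DESeq2 1717, 1917 and 1781, and an adjusted p under 0.05 2063, 2164 and 2112. Counts were 2154, 2259 and 2232 with no filter and 343, 674 and 411 with at least 10 counts in every library. DESeq2 with the block gave 1507, 1788 and 1630. Leaving out a library leaves 1 in a cell type, which is assumed to vary like the others. The low counts of *Cdkn1a*, *Cdkn2a* and *Ccnd1* in Naive replicate 2 (13, 6 and 31) limit the precision of their folds.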
